A study of Rattus norvegicus with 24 samples.

Results

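Solute carriers are membrane proteins that move ions, nutrients and metabolites across the plasma membrane and the membranes of organelles. The genes described here are the 166 solute carriers, of 10797 genes listed in any of the 4 deposited tables, whose symbol begins with Slc, a family number and a letter. Mitochondrial carriers of the Slc25a family and 5 other genes (Slc2a1, Slc2a4, Slc27a1, Slc8a1 and Slc6a8) were left out of that set. The symbol rule also takes in 4 genes that are not transporters: Slc9a3r1, Slc9a3r2, Slc7a6os and Slc4a1ap. All 4 tables list 146 members, and 145, 144, 143 and 149 members were tested at 2, 10, 20 and 40 weeks. Members were sorted by what they carry, from family knowledge: 32 for amino acids and peptides, 27 for metal ions, 20 for nucleotide sugars and acetyl-CoA, 15 for nucleosides, vitamins and choline, 13 for protons and bicarbonate, 13 for organic ions and lipids, 13 for sugars, 12 for chloride and other anions, 9 for monocarboxylates, 3 for calcium, 3 for vesicles and lysosomes and 2 for phosphate. By location, 66 are assigned here to the plasma membrane, 42 to an organelle and 58 to neither.

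RNA was sequenced from the myocardium of Sprague-Dawley rats with mitral regurgitation (MR), a leak made by perforating a mitral valve leaflet through a left thoracotomy, and from rats with the same operation but no perforation (Sham). There were 4 MR libraries from 2 weeks after surgery, 5 each from 10, 20 and 40 weeks, and 5 Sham libraries from 2 weeks. Since every Sham library is from 2 weeks, time with MR, age and handling cannot be told apart at 10, 20 and 40 weeks. The labels give neither sex, age, heart chamber nor batch, and do not say that each library is a separate animal, so p-values measure the spread between these libraries, which may be technical.

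The libraries held 7.69 to 12.1 M reads on listed genes. All 14 cardiomyocyte markers searched were tested at 40 weeks, with summed normalised counts of 38666 to 55596 in MR and 45639 to 62843 in Sham libraries. No library matched another of its group within counting error. A gene is listed in a table only where each library has at least 1 read, so carriers absent from a library are not seen. Each listed gene also had at least 31 reads in its highest library, so weak carriers are not seen either.

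In heart muscle, carriers of the monocarboxylate family take up and release lactate, pyruvate and ketone bodies together with protons. Sodium-proton exchangers and bicarbonate carriers set the pH of the cell, cation-chloride cotransporters set its chloride and volume, and zinc, magnesium and phosphate carriers set the levels of those ions. Carriers of the endoplasmic reticulum and Golgi bring in the activated sugars, sulphate and ATP that glycoprotein synthesis uses. Many of the amino acid carriers work as a pair with the heavy chain Slc3a2, and monocarboxylate carriers need the chaperone basigin (Bsg) to reach the cell surface.

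Promoter sequences (RefSeq, GRCr8, 250 bases before to 50 after the gene start, 5′ to 3′ on the gene's strand) were available for 129 of the 166 members. Those of Slc16a1, Slc9a8, Slc22a15 and Slc7a6 are shown because, among members named by rank at 40 weeks (groups apart and level at or above the median member) that had a promoter sequence, these were the 2 highest and 2 lowest by log2 fold change. The E-box CACGTG and the GC box GGGCGG, searched on both strands, are in capitals. Slc16a1, the lactate and pyruvate carrier MCT1, lies at chr2:194812410-194812709 on the plus strand. Slc9a8, a sodium-proton exchanger of the Golgi and endosomes, lies at chr3:176566875-176567174 on the plus strand. Slc22a15, an organic zwitterion carrier, lies at chr2:192047311-192047610 on the minus strand. Slc7a6, an amino acid exchanger, lies at chr19:50993256-50993555 on the plus strand.
Slc16a1: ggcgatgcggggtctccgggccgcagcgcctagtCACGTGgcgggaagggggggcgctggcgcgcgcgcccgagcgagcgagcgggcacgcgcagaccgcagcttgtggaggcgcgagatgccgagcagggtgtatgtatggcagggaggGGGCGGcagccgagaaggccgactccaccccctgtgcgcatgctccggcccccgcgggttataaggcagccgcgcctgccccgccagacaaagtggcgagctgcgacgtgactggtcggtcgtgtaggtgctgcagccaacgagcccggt
Slc9a8: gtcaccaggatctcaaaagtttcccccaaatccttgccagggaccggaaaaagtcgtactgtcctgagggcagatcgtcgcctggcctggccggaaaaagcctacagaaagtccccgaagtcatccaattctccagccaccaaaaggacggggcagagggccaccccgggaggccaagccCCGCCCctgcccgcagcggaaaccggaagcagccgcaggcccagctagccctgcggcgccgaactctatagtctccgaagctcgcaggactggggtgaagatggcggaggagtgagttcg
Slc22a15: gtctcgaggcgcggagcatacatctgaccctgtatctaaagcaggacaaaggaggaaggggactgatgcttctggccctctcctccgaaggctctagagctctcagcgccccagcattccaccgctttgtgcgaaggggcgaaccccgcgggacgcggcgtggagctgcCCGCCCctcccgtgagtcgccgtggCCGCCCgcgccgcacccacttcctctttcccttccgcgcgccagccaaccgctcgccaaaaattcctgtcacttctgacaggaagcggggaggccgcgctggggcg
Slc7a6: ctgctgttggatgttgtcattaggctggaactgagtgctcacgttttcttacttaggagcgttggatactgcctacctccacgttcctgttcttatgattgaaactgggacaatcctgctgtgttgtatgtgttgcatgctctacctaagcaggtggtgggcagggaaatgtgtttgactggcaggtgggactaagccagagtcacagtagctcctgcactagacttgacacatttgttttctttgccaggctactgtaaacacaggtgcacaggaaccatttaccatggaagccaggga

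The window of Slc16a1 holds 1 E-box and 1 GC box, that of Slc9a8 holds 1 GC box, that of Slc22a15 holds 2 GC boxes, and that of Slc7a6 holds neither motif. CACGTG was found in 23 of 129 member promoters (17.8%), in 9.58% of the 7947 promoters of genes tested at 40 weeks and in 6.65% of all 27457 promoters. GGGCGG was found in 62.8% of member promoters, 64% of promoters of tested genes and 34.9% of all promoters. Among the 21 members named by rank at 40 weeks, 15 had a promoter sequence, and the E-box was in those of Slc16a1 and Slc12a7, both higher in MR. These matches describe letters in a window and were not tested against the expression values.

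Slc30a1, which exports zinc from the cell and is a classical target of the metal-responsive factor Mtf1, is shown for its metal response cores TGCACNC and TGCGCNC, in capitals on either strand. It lies at chr13:106021769-106022068 on the plus strand.
Slc30a1: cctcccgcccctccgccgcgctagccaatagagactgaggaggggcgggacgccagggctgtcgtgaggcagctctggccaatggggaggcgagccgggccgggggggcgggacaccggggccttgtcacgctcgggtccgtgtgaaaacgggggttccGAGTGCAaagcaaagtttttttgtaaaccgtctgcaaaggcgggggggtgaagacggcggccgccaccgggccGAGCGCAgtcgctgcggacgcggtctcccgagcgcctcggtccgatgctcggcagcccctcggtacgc
Each core was found once there. TGCACNC was found in 13.2% of member promoters, 13.2% of promoters of genes tested at 40 weeks and 12.2% of all promoters. TGCGCNC was found in 20.9% of member promoters, 28.2% of promoters of tested genes and 15% of all promoters.

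At 40 weeks solute carriers differed between MR and Sham in both directions and within most roles. Of those tested 43% passed, against 47.3% of all genes. Slc16a1 rose by 1.68 on the log2 scale, the glutamine carrier Slc38a1 by 1.60, the taurine carrier Slc6a6 by 1.06, the sodium-bicarbonate cotransporter Slc4a4 by 1.01 and the magnesium carrier Slc41a1 by 0.88. The amino acid exchanger Slc7a6 fell by 1.17, the anion exchanger Slc26a6 by 1.15, Slc22a15 by 1.06, the mitochondrial sodium-calcium exchanger Slc8b1 by 0.93, the purine nucleoside carrier Slc28a2 by 0.86 and the phosphate carrier Slc20a1 by 0.85. Values are deposited normalised read counts, tested as log2(value + 1), and passing means an adjusted p (Benjamini-Hochberg, all tested genes) under 0.05. Adding 1 makes fold changes smaller at low counts, so their sizes are not to be ranked between members of unlike level.

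Of 149 members tested at 40 weeks, 30 rose (20.1%), against 16.3% of all 10094 genes tested, and 34 fell (22.8%), against 30.9%. In either direction 43% of members passed, against 47.3% of all genes, so the carriers changed about as often as the transcriptome did. Groups did not overlap for 33 members (22.1%) and for 29.2% of all genes. The median log2 fold change was 0.01 over members and -0.15 over all genes. Median-ratio rescaling, which divides a library by its typical ratio to the average library, moved the median of all genes to -0.01. On that scale 43 members rose and 23 fell, so that rises made up 65.2% of the calls, against 46.9% as deposited. Counts on the other scale, here and below, come without shares over all genes. They show how calls depend on scaling and are no result about the carriers. All 30 rises and 23 of the 34 falls passed on both scales. The rises include Slc17a7, Slc26a9 and Slc36a1, which were listed at 40 weeks only. Since the Sham libraries were the same at each time, that listing rests on the MR libraries tested. Such a listing can itself favour a rise, so the rises of these genes, though counted above, are not evidence of a change.

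**Figure D1:**
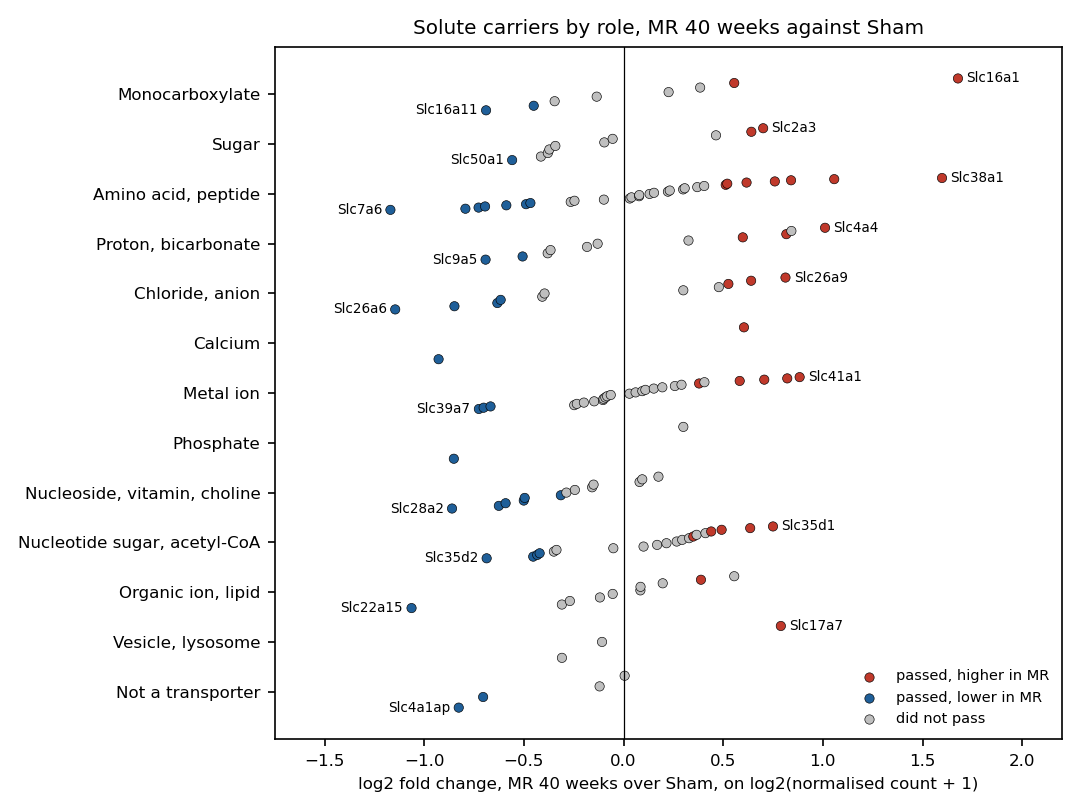
Log2 fold change of each tested solute carrier (x axis, log2 of normalised count + 1, MR at 40 weeks over Sham), grouped by role (y axis); red and blue points passed and grey points did not, and labels give the lowest and highest passing member of each role with over 2 members tested. Rises and falls are mixed in most roles, and Slc16a1 stands farthest right at 1.68. The nucleoside, vitamin and choline carriers have 6 falls and no rise among 13 tested. Over all genes 16.3% rose and 30.9% fell.

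Among the monocarboxylate carriers 2 of 8 tested members rose and 2 fell. Counts by role at 40 weeks, here and below, are to be read against 16.3% rises and 30.9% falls over all genes. Slc16a1 (rn6 chr2:207108552-207128562, plus strand) had 156, 183, 112, 197 and 160 normalised counts in MR libraries at 40 weeks, against 69.1, 29.9, 27.4, 69.9 and 70.2 in Sham libraries. Every MR library lay above every Sham library, and the Sham libraries fell into 2 near 28 to 30 and 3 near 70. Its log2 fold change was 1.68 ± 0.27 (SE; adjusted p = 0.000432, limma). The lactate exporter Slc16a3 (MCT4) did not pass, at 2.4 ± 1.46 in MR and 2.58 ± 1.01 in Sham (SD, n = 5 each; adjusted p = 0.696). Basigin, the chaperone of both, averaged 455 ± 61.3 in MR and 460 ± 72.7 in Sham libraries (adjusted p = 0.955).

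Among the sugar carriers 2 of 10 rose and 1 fell. Slc2a3, the glucose carrier GLUT3 best known from neurons, had 3.57, 3.44, 3.9, 3.05 and 3.53 normalised counts in MR libraries, against 1.38, 1.4, 2.19, 1.38 and 2.7 in Sham libraries. The groups did not overlap (0.70 ± 0.16, adjusted p = 0.00273). The span listed for Slc2a3 also overlaps Foxj2 and Necap1 on the opposite strand, and the strand setting of the counting is unknown here, so their reads cannot be told apart. Of 52 named members 10 overlap another listed gene, and apart from Slc2a3 and Slc26a10 they do so only with genes listed over more than 1000 kb, a span that may join separate loci. Those 8 are Slc12a2, Slc12a7, Slc16a13, Slc17a5, Slc1a5, Slc22a5, Slc26a6 and Slc8b1. The intracellular glucose carrier Slc2a8 (4.26 ± 0.895 in MR and 5.78 ± 0.886 in Sham) and the insulin-responsive Slc2a12 (8.54 ± 3.0 in MR and 5.69 ± 1.01 in Sham) did not pass (adjusted p = 0.0549 and 0.0687). Slc2a12 passed on the rescaled values, with a log2 fold change of 0.60 and an adjusted p of 0.028.

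The amino acid and peptide carriers had 7 rises and 7 falls among 29 tested members. Slc36a1, among the rises, was listed at 40 weeks only. Slc6a6, which brings taurine into heart cells, had 11.4, 8.71, 8.95, 11.2 and 20.3 normalised counts in MR libraries, against 5.24, 2.31, 3.88, 6.55 and 9.48 in Sham libraries. One Sham library lay inside the MR range, and the highest MR library was far above the other 4. Slc6a6 passed at 1.06 ± 0.28 (adjusted p = 0.00726). Slc38a1 had 21.4, 22.1, 10.4, 32.4 and 24.6 in MR libraries, against 10.6, 4.54, 3.32, 6.28 and 8.85 in Sham libraries. Its lowest MR library lay just under its highest Sham library (1.60 ± 0.29, adjusted p = 0.000793).

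Slc7a6 (y+LAT2, rn6 chr19:38162515-38179150, plus strand), which exchanges cationic for neutral amino acids, had 20.2, 13.9, 19.6, 17.8 and 14.1 normalised counts in MR libraries, against 56.8, 54.7, 33.7, 35.2 and 25.3 in Sham libraries. The MR libraries lay close together below a wide Sham range (-1.17 ± 0.21, adjusted p = 0.000644). Its heavy chain Slc3a2 averaged 45.4 ± 5.85 in MR and 38.4 ± 15.8 in Sham and did not pass (adjusted p = 0.243), while it passed in the fit of all libraries together (0.49, adjusted p = 0.0274). Slc7a5 (LAT1), another light chain of Slc3a2, averaged 4.83 ± 0.875 in MR and 4.81 ± 1.70 in Sham and did not pass (adjusted p = 0.878). Slc1a5, the neutral amino acid exchanger ASCT2, fell to 2.71 ± 0.394 in MR, against 5.22 ± 1.33 in Sham (-0.73 ± 0.15, adjusted p = 0.00195), but did not pass in the fit of all libraries together (-0.59, adjusted p = 0.055). The cationic carrier Slc7a1 (22.3 ± 4.72 in MR and 20.1 ± 8.43 in Sham) and the starvation-responsive neutral carrier Slc38a2 (127 ± 22.3 in MR and 115 ± 11.5 in Sham) did not pass (adjusted p = 0.475 and 0.479).

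Of 11 proton and bicarbonate carriers tested, 3 rose and 2 fell. Slc9a8 had 6.16, 9.18, 6.52, 11.6 and 8.06 normalised counts in MR libraries, against 3.09, 6.11, 5.67, 2.98 and 3.78 in Sham libraries. The lowest MR library was just above the highest Sham library (0.82 ± 0.20, adjusted p = 0.00486). Slc4a4, the electrogenic cotransporter that brings in bicarbonate with sodium, had 3.26, 2.73, 0.944, 5.13 and 3.03 in MR libraries, against 1.32, 1.05, 0.459, 0.798 and 0.835 in Sham libraries. A single MR library lay within the Sham range (1.01 ± 0.25, adjusted p = 0.00493).

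Among members of this role that did not pass, Slc4a3, the cardiac chloride-bicarbonate exchanger AE3, averaged 100.5 ± 18 in MR and 114 ± 20.8 in Sham (adjusted p = 0.356). Slc4a1, the band 3 anion exchanger of red cells, also picked out once its value was known, averaged 26.4 ± 9.75 in MR and 21.1 ± 9.33 in Sham (adjusted p = 0.384). The 7 erythroid markers tested had no rise and no fall, with summed counts of 555 to 6676 in MR and 1450 to 17094 in Sham libraries.

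The chloride and anion carriers had 3 rises and 4 falls among 11 tested. Of the rises, Slc26a9 was listed at 40 weeks only and Slc26a1 at 10 and 40 weeks only. Slc12a7 (KCC4), a potassium-chloride cotransporter that carries chloride out, had 196, 197, 155, 268 and 178 normalised counts in MR libraries, against 143, 118, 85.6, 138 and 153 in Sham libraries. Slc12a2 (NKCC1), which carries sodium, potassium and chloride in, had 19.7, 18.7, 17.8, 16.4 and 22.3 in MR libraries, against 27.7, 26.6, 29.2, 33.7 and 30.8 in Sham libraries. The exporter was higher and the importer lower in every MR library than in any Sham library (Slc12a7 0.64 ± 0.18, adjusted p = 0.0107; Slc12a2 -0.62 ± 0.12, adjusted p = 0.0011). Slc26a6 had 2.33, 3.44, 3.53, 2.93 and 2.62 in MR libraries, against 5.69, 6.81, 7.86, 10.2 and 8.8 in Sham libraries, with no overlap (-1.15 ± 0.16, adjusted p = 0.000208). Slc26a10, of the anion exchanger family, fell to 35.4 ± 6.43 in MR, against 64.8 ± 13.4 in Sham (-0.85 ± 0.16, adjusted p = 0.00103), and its listed span overlaps the edge of B4galnt1 on the opposite strand.

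Of 2 calcium exchangers tested, Slc24a3 (not on the panel and picked out once its value was known) rose by 0.60 on the log2 scale, with an adjusted p of 0.0126, and Slc8b1 fell. Slc8b1 (NCLX), which lets calcium out of mitochondria in exchange for sodium, had 5.24, 4.26, 5.17, 3.65 and 3.7 normalised counts in MR libraries, against 6.62, 9.87, 13.3, 8.04 and 9.29 in Sham libraries. The groups did not overlap (-0.93 ± 0.17, adjusted p = 0.000763).

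The metal ion carriers had 5 rises and 3 falls among 26 tested. Slc41a1 (rn6 chr13:48607308-48628000, plus strand), a magnesium carrier of the plasma membrane, had 86.3, 105, 75.9, 118 and 78.2 normalised counts in MR libraries, against 48.9, 46.4, 39, 53 and 60.4 in Sham libraries. Slc39a7 (ZIP7), which releases zinc from the endoplasmic reticulum and Golgi, had 37.6, 35.9, 43.7, 36.4 and 32.7 in MR libraries, against 61.1, 56.5, 71.1, 73.9 and 50.6 in Sham libraries. Slc41a1 was higher and Slc39a7 lower in each MR library than in any Sham library (0.88 ± 0.16, adjusted p = 0.000648, and -0.73 ± 0.13, adjusted p = 0.000829).

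Slc30a1, whose promoter is shown above, had 7.71, 8.51, 4.96, 7.98 and 10.2 normalised counts in MR libraries, against 5.91, 3.06, 2.6, 5.59 and 5.45 in Sham libraries. The ranges met, since the lowest MR library fell inside the Sham range (0.71 ± 0.21, adjusted p = 0.0147). The zinc importer Slc39a5 fell to 6.17 ± 1.21 in MR, against 10.7 ± 1.79 in Sham (adjusted p = 0.00192), while Slc39a14 (ZIP14), a zinc and iron importer, did not pass (37.4 ± 3.73 in MR and 41 ± 9.68 in Sham). The iron exporter Slc40a1 (ferroportin; 9.37 ± 2.13 in MR and 7.92 ± 2.89 in Sham) and the iron importer Slc11a2 (DMT1; 14.7 ± 2.56 in MR and 15.7 ± 3.16 in Sham) did not pass either. The copper importer Slc31a1 missed the threshold (0.41 ± 0.17, adjusted p = 0.0671) and passed on the rescaled values (adjusted p = 0.0214).

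Slc20a1 and Slc20a2, the phosphate importers PiT1 and PiT2, were both tested. Slc20a1 had 29.3, 32, 30.2, 18.4 and 19.9 normalised counts in MR libraries, against 48.8, 57, 50.4, 35.5 and 43.7 in Sham libraries, with no overlap (-0.85 ± 0.18, adjusted p = 0.0017). In the fit of all libraries together its adjusted p was 0.0509. Slc20a2 averaged 68.2 ± 14.6 in MR and 54.7 ± 6.73 in Sham and did not pass (0.30 ± 0.15, adjusted p = 0.109), while on the rescaled values it passed with 0.46 (adjusted p = 0.0143).

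The nucleoside, vitamin and choline carriers had 6 falls and no rise among 13 tested members, against 30.9% falls over all genes. On the rescaled values 3 of them fell and none rose. Slc28a2 (CNT2), which concentrates purine nucleosides in the cell with sodium, had 31.8, 25, 37.2, 26.7 and 32.8 normalised counts in MR libraries, against 69.2, 70.3, 45.7, 51 and 48.5 in Sham libraries. Slc29a1 (ENT1), the equilibrative carrier through which adenosine crosses the membrane, had 14.4, 13, 11.9, 14.8 and 10.3 in MR libraries, against 22.6, 23.5, 18.1, 17.5 and 20.2 in Sham libraries. Both sets of MR libraries lay below all Sham libraries (Slc28a2 -0.86 ± 0.16, adjusted p = 0.000799; Slc29a1 -0.63 ± 0.13, adjusted p = 0.00198). The choline carrier-like Slc44a2 fell to 56.9 ± 6.20 in MR, against 80.7 ± 9.67 in Sham (-0.50 ± 0.13, adjusted p = 0.00575), but did not pass in the fit of all libraries together (-0.31, adjusted p = 0.0836). Slc19a2, the thiamine carrier, fell to 5.29 ± 1.77 in MR, against 7.72 ± 1.15 in Sham (-0.50 ± 0.18, adjusted p = 0.0307), and did not pass on the rescaled values (adjusted p = 0.0885), nor when any 1 of 6 libraries was left out (MR replicates 1, 2 and 5 and Sham replicates 1, 4 and 5; adjusted p from 0.0557 to 0.0804).

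**Figure D2:**
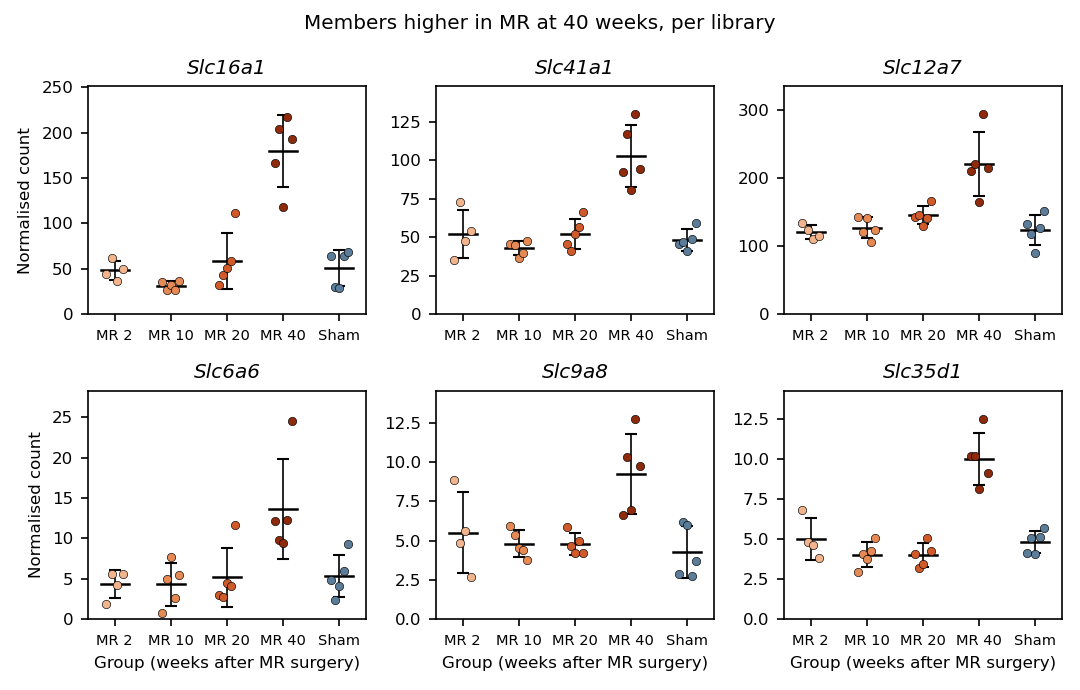
Normalised counts (y axis, rescaled between tables) of 6 members higher in MR at 40 weeks, in each library by group (x axis), with the mean and SD as bars. On average the 40-week MR libraries stand above each other group for all 6 members, and 1 library at 20 weeks reaches 111 for Slc16a1.

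The nucleotide sugar and acetyl-CoA carriers, most of them in the endoplasmic reticulum and Golgi, had 5 rises and 4 falls among 20 tested. Slc35d1, which brings UDP-glucuronic acid and UDP-N-acetylgalactosamine into the endoplasmic reticulum for the chains of proteoglycans, had 9.47, 9.09, 7.67, 11.3 and 7.56 normalised counts in MR libraries, against 4.47, 5.02, 3.88, 5.59 and 5.8 in Sham libraries. All MR libraries were above all Sham libraries (0.75 ± 0.14, adjusted p = 0.00103). Slc35e1, a family member with no substrate given here, rose to 18.7 ± 1.77 in MR, against 13 ± 1.08 in Sham (adjusted p = 0.00342).

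Slc35d2, another nucleotide sugar carrier and the largest of the 4 falls in that role, averaged 2.18 ± 0.519 in MR and 4.13 ± 0.849 in Sham (-0.69 ± 0.16, adjusted p = 0.00356). Slc35b1, which exchanges ATP and ADP across the membrane of the endoplasmic reticulum, averaged 17.8 ± 2.87 in MR and 23.9 ± 1.43 in Sham (-0.42 ± 0.13, adjusted p = 0.0143). Slc35b2, which brings the sulphate donor PAPS into the Golgi, averaged 10.7 ± 1.61 in MR and 14.7 ± 2.06 in Sham (-0.43 ± 0.14, adjusted p = 0.0183). Slc35b2 did not pass without MR replicate 5 (adjusted p = 0.0504). Neither Slc35b1 nor Slc35b2 passed on the rescaled values (adjusted p = 0.0801 and 0.0834), where this role had 9 rises and 1 fall, without a share over all genes. Slc33a1, the acetyl-CoA carrier of the endoplasmic reticulum, and Slc35a4 did not pass as deposited (adjusted p = 0.0808 and 0.0722) and passed rescaled (adjusted p = 0.023 and 0.00861).

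The organic ion and lipid carriers had 1 rise and 1 fall among 10 tested. Slc22a15 had 3.21, 3.16, 5.38, 3.45 and 5.11 normalised counts in MR libraries, against 8, 9.47, 12.8, 9.05 and 8.26 in Sham libraries. The highest MR library was well below the lowest Sham library (-1.06 ± 0.17, adjusted p = 0.000365). Slc22a5 (OCTN2), the carnitine importer of heart muscle, averaged 11.4 ± 2.34 in MR and 11.7 ± 1.15 in Sham (adjusted p = 0.774). Of 3 vesicle and lysosome carriers 1 rose, Slc17a7, which was listed at no other time. The lysosomal sialic acid exporter Slc17a5 did not pass (1.79 ± 0.253 in MR and 2.52 ± 0.773 in Sham, adjusted p = 0.136).

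Of the 4 genes that are not transporters, 2 fell. Slc4a1ap (kanadaptin) averaged 14 ± 1.60 in MR and 25.7 ± 3.93 in Sham (-0.83 ± 0.13, adjusted p = 0.000357). Slc9a3r2 (NHERF2), a scaffold that holds sodium-proton exchangers at the membrane, averaged 70.9 ± 8.73 in MR and 116 ± 17.4 in Sham (-0.70 ± 0.14, adjusted p = 0.00127). By location, 12 of 60 tested plasma membrane carriers rose and 16 fell, and 7 of 40 organelle carriers rose and 11 fell, against 16.3% rises and 30.9% falls over all genes.

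**Figure D3:**
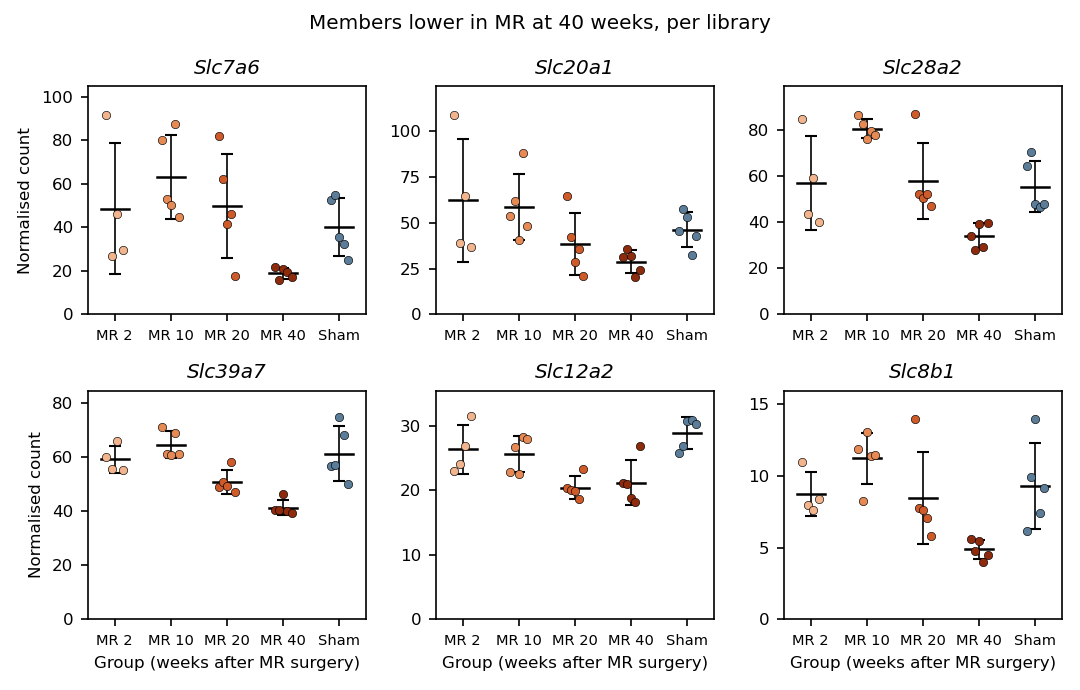
Normalised counts (y axis, rescaled between tables) of 6 members lower in MR at 40 weeks, in each library by group (x axis), with the mean and SD as bars. The 40-week MR libraries lie low and close together, while Slc7a6 and Slc20a1 vary widely at 2, 10 and 20 weeks, with single 2-week MR libraries at 91.6 and 109.

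Members that rose and members that fell differed in gene length, as did all tested genes. The median genomic span listed on rn6 was 39.1 kb for the 30 rises, 16.3 kb for the 34 falls and 21 kb for the 85 members that did not pass. Over all tested genes the medians were 41.3 kb for 1648 rises, 12.5 kb for 3124 falls and 22.7 kb for 5322 others. Spearman's rho between span and log2 fold change was 0.25 over the 149 members and 0.33 over all 10094 genes, a description over genes measured in the same libraries. Transcript length and RNA integrity are not in the files, and their part in the result was not tested.

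Marker lists at 40 weeks are to be read against 16.3% rises and 30.9% falls over all genes. Of 13 endothelial markers 1 rose and 6 fell, with summed counts of 906 to 1237 in MR and 1221 to 1559 in Sham libraries. Of 12 fibroblast markers 2 rose and 5 fell (summed 813 to 1175 in MR and 1121 to 2892 in Sham), and of 12 macrophage markers 4 fell (78.0 to 161 in MR and 125 to 242 in Sham). Cardiomyocyte markers had 2 rises and 6 falls among 14, and smooth muscle and pericyte markers 3 rises and 2 falls among 10. Atrial markers had 1 rise and 1 fall among 7, with summed counts of 183 to 1976 in MR and 169 to 639 in Sham libraries. At 10 weeks the atrial sum reached 4328 in MR libraries, against at most 635 in Sham libraries. Lymphocyte markers had 1 fall among 4, and adipocyte markers 2 falls among 4. Neural and Schwann markers had 1 rise and 1 fall among 6, and skeletal muscle markers 1 rise and 2 falls among 4. In these bulk libraries fewer cells of a type and less RNA per cell cannot be told apart, and the part of cell makeup in the carriers' values was not tested.

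Partner genes of the carriers (pumps, chaperones, regulators and the carriers left out by the rule) had 11 rises and 9 falls at 40 weeks among 42 tested of 45 listed, against 16.3% rises and 30.9% falls over all genes. On the rescaled values they had 13 rises and 6 falls, without a share over all genes. The organic anion carrier Slco3a1 rose by 1.89, the pyrophosphate exporter Ankh by 1.60, the phosphate exporter Xpr1 by 1.15 and the sodium-calcium exchanger Slc8a1 of the cell surface by 0.96. The glucose carrier Slc2a1 (GLUT1) rose to 14.1 ± 3.88 in MR, against 7.50 ± 1.32 in Sham, while the insulin-regulated Slc2a4 (GLUT4) averaged 210.0 ± 31.6 in MR and 224 ± 55.6 in Sham and did not pass (adjusted p = 0.767).

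Partners of the zinc carriers moved both ways: Mtf1 rose to 9.13 ± 1.38 in MR, against 4.86 ± 0.428 in Sham (adjusted p = 0.000453), and the metallothionein Mt2A fell to 1.69 ± 1.61 in MR, against 3.66 ± 1.26 in Sham (adjusted p = 0.0259). Stk39 (SPAK) and Wnk1, kinases that switch the cation-chloride cotransporters, rose by 0.69 and 0.39. The carbonic anhydrases Car4 and Car2, which work beside bicarbonate carriers, fell by 0.86 and 0.51, and the kinase Sgk1 by 0.74. The pyruvate carrier subunits Mpc1 and Mpc2 did not pass (adjusted p = 0.319 and 0.921).

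At 2, 10 and 20 weeks few members stood apart from Sham. At 2 weeks none of 145 members passed, and 0% of 10173 genes passed in either direction. With an unadjusted p under 0.05 there were 9 members (6.21%), against 5.47% of all genes, and neither DESeq2 nor edgeR on recovered reads called a member. Groups did not overlap for 0 members, against 2.16% of all genes. The smallest p values were those of Slc7a15, Slc2a3 and Slc7a1. Slc7a1, which imports arginine, had 42.6, 26.7, 41.7 and 26.8 normalised counts in MR libraries at 2 weeks, against 21.8, 31.6, 11.9, 27.8 and 12.5 in Sham libraries. The groups overlapped (0.75 ± 0.29, adjusted p = 0.84). Slc2a3 averaged 3.09 ± 0.527 in MR and 1.90 ± 0.633 in Sham (SD, n = 4 and 5; adjusted p = 0.821), and Slc7a15 1.52 ± 0.466 in MR and 2.68 ± 0.723 in Sham (adjusted p = 0.821).

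At 10 weeks 1 of 144 members rose, Slc43a3, against 0.158% of 10096 genes, and none fell, against 0.0099%. Slc43a3 (rn6 chr3:72330031-72350464, plus strand), placed by family among the amino acid carriers and known in human cells as a purine nucleobase carrier, had 29.6, 25.6, 35.2, 31.7 and 27.1 normalised counts in MR libraries, against 20.3, 17.1, 11.5, 14.8 and 17 in Sham libraries. The groups did not overlap, as for 7 members in all (4.86%), against 2.45% of all genes, and it passed at 0.86 ± 0.15 (adjusted p = 0.0358). That call was lost when any 1 of 7 libraries was left out (MR replicates 1 to 4 and Sham replicates 3, 4 and 5; adjusted p from 0.0507 to 0.127), on the rescaled values (0.0545) and with edgeR (0.0538).

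Slc28a2 had 97.8, 83.8, 85.8, 86.8 and 87.7 normalised counts in MR libraries at 10 weeks, against 70.2, 72.1, 47.3, 50.7 and 49.7 in Sham libraries. Although the groups did not overlap, it missed the threshold (0.62 ± 0.14, adjusted p = 0.103), and DESeq2 on recovered reads called it (adjusted p = 0.0291). Slc16a13, of the monocarboxylate family, had 3.23, 1.99, 1.35, 1.48 and 3.61 in MR libraries, against 4.37, 6, 3.96, 4.77 and 5.54 in Sham libraries (-0.87 ± 0.20, adjusted p = 0.11). It too was apart in all libraries without passing, and DESeq2 called it (adjusted p = 0.0119).

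At 20 weeks none of 143 members passed, against 0.0698% rises and 0% falls over 10025 genes, and 12 members (8.39%) had an unadjusted p under 0.05, against 9.49% of all genes. Groups did not overlap for 5 members (3.5%), against 1.8% of all genes. edgeR called no member and DESeq2 called 2, both lower in MR, without a share over all genes. Slc1a5 had 1.77, 0.359, 2.19, 2.33 and 1.64 normalised counts in MR libraries at 20 weeks, against 4.16, 4.49, 7.55, 5.28 and 4.41 in Sham libraries. Slc12a2 had 20.1, 21.7, 19.9, 18.6 and 22.3 in MR libraries, against 27.1, 26.6, 29.6, 32.8 and 30.4 in Sham libraries. Both were apart from Sham in every library and missed the adjusted threshold (Slc1a5 -1.26 ± 0.24, adjusted p = 0.0792; Slc12a2 -0.49 ± 0.11, adjusted p = 0.141). These are the 2 that DESeq2 called (adjusted p = 0.00353 and 0.00233). Slc16a13 averaged 2.73 ± 0.849 in MR and 4.79 ± 0.803 in Sham (adjusted p = 0.243).

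**Figure D4:**
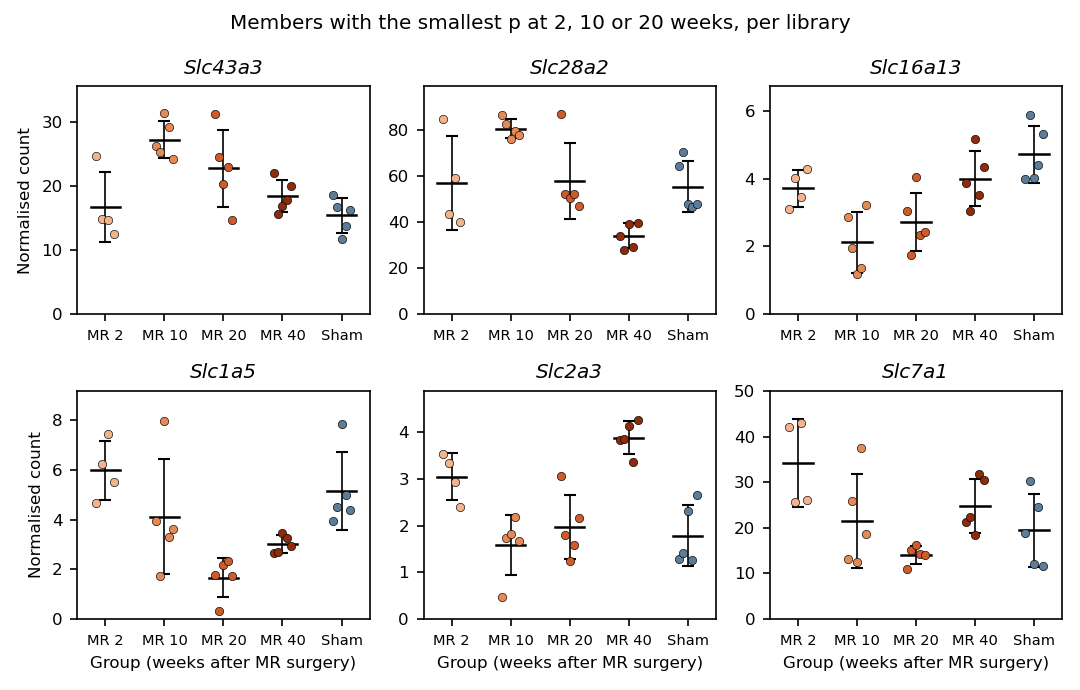
Normalised counts (y axis, rescaled between tables) of 6 members with small p values at 2, 10 or 20 weeks, in each library by group (x axis), with the mean and SD as bars. Slc43a3 and Slc28a2 are high in all 5 MR libraries at 10 weeks, Slc1a5 is lowest at 20 weeks, and Slc2a3 is highest in MR at 40 weeks.

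The times with MR were compared with each other after all 24 libraries had been put on a common scale. At 10 weeks against 2 weeks 1 of 143 members rose, Slc43a3 (27.2 ± 2.96 at 10 weeks and 16.6 ± 5.39 at 2 weeks, adjusted p = 0.0466), against 0.301% of 9983 genes, and none fell, against 1.07%. There was no rise with a pseudocount of 0.1, a mean of at least 10 or only the groups compared, 0 to 3 rises when 1 library was left out, and 11 rises and 6 falls with library weights. At 20 weeks against 10 weeks no member passed, against 0% rises and 0.01% falls over all genes, although 25 members (17.5%) had an unadjusted p under 0.05, against 15.2% of all genes. With library weights 4 members rose and 8 fell in that comparison. No shares over all genes are given for library weights or the other settings, so these counts are no result about the carriers. Groups did not overlap for 6 members at 10 against 2 weeks, against 5.16% of all genes, and for 3 members at 20 against 10 weeks, against 3.07%. No count model was run on these comparisons between MR times.

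Between 40 and 20 weeks of MR 38 of 143 members rose (26.6%), against 21.3% of all genes, and 14 fell (9.79%), against 17.5%. The median log2 fold change was 0.17 over members and 0.01 over all genes. With the values as deposited, which moved the median of all genes to -0.13, 22 members rose and 26 fell, so that rises made up 45.8% of the calls, against 73.1% on the common scale. No shares over all genes are given for the values as deposited. All 14 falls and 22 of the 38 rises passed on both. An unadjusted p under 0.05 was found for 67 members (46.9%), against 47.5% of all genes. By role, 9 of 27 amino acid carriers, 9 of 26 metal carriers and 7 of 20 nucleotide sugar carriers rose, while 2, 2 and 1 fell, and 3 of 15 nucleoside, vitamin and choline carriers fell with no rise. The median span was 35.9 kb for the rises and 14.3 kb for the falls.

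**Figure D5:**
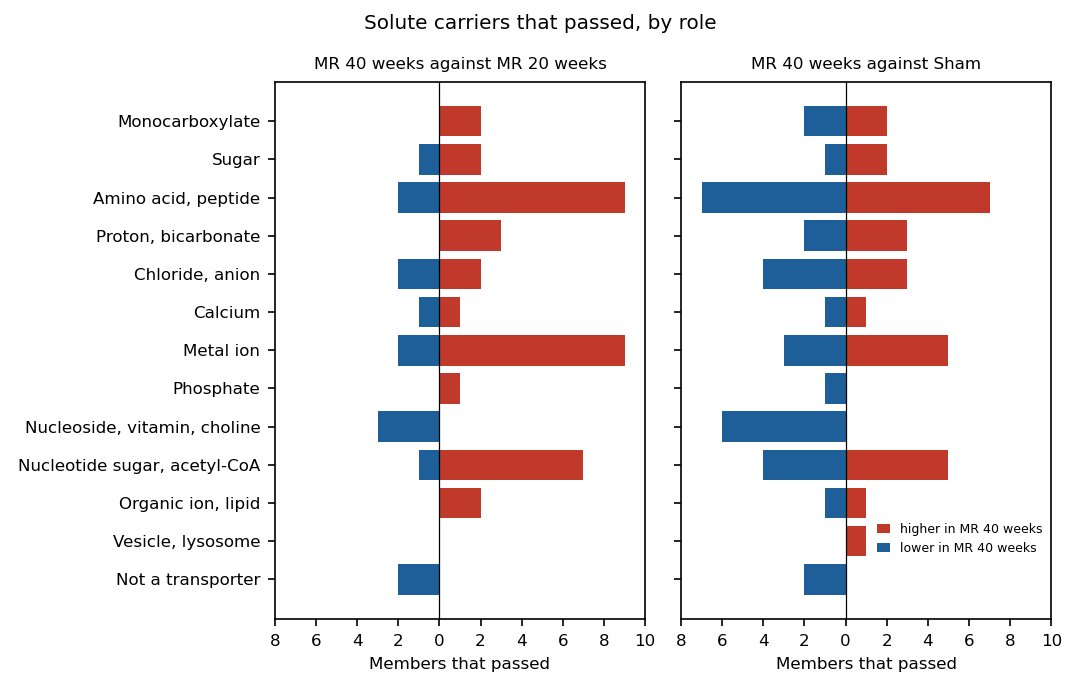
Number of members that passed (x axis, rises to the right in red and falls to the left in blue) in each role (y axis), for MR at 40 weeks against MR at 20 weeks and against Sham. Both panels use the same 40-week MR libraries, and the left panel (38 rises and 14 falls) is on the common scale and the right (30 rises and 34 falls) as deposited, so their splits are not to be compared. Over all genes 21.3% rose and 17.5% fell in the left comparison as shown, and 16.3% rose and 30.9% fell in the right. As deposited the left comparison has 22 rises and 26 falls, and rescaled the right has 43 rises and 23 falls.

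On the common scale Slc16a1 in MR libraries had 44.3, 62.2, 36.2 and 50.2 normalised counts at 2 weeks and 35.9, 26.7, 31.8, 26.9 and 36.6 at 10 weeks. It had 31.7, 43.3, 50.8, 58.3 and 111 after 20 weeks, and 167, 204, 118, 217 and 193 after 40 weeks of MR. The 40-week libraries stood above all earlier MR libraries, the nearest being replicate 5 at 20 weeks. Its log2 fold change was 1.69 ± 0.27 at 40 against 20 weeks (adjusted p = 5.08e-05) and 1.87 ± 0.29 at 40 against 2 weeks (adjusted p = 4.56e-05). That same 20-week library was also the highest of its group for Slc6a6 (11.6, the others 2.79 to 4.5) and for the glutamine carrier Slc38a1 (12.2, the others 4.67 to 6.61), and the lowest for Slc7a6 (17.4, the others 41.4 to 82.1).

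Slc41a1 reached 103 ± 20.2 at 40 weeks, against 52.2 ± 9.72 at 20 weeks (0.96 ± 0.16, adjusted p = 9.14e-05). The organic ion family member Slc22a23 reached 21.8 ± 2.66 at 40 weeks, against 11.1 ± 1.71 at 20 weeks (0.92 ± 0.14, adjusted p = 3.48e-05). Slc26a6, a chloride-bicarbonate and oxalate exchanger, fell to 3.29 ± 0.539 at 40 weeks, against 7.40 ± 2.30 at 20 weeks (-0.94 ± 0.19, adjusted p = 0.000395). Slc28a2 fell to 34.1 ± 5.42 at 40 weeks, against 58 ± 16.5 at 20 weeks (adjusted p = 0.0028), and Slc4a1ap to 15.5 ± 1.31 at 40 weeks, against 27.3 ± 4.74 at 20 weeks (adjusted p = 0.000179). All of these groups were apart in each library.

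Between 40 and 2 weeks of MR 35 members rose (24.5%), against 24.3% of all genes, and 26 fell (18.2%), against 21.3%. With the values as deposited 25 rose and 39 fell, without a share over all genes. Slc38a1, which brings glutamine into the cell with sodium, had 23, 24.8, 11, 35.5 and 29.6 normalised counts at 40 weeks, against 6.69, 8.89, 7.87 and 7.34 at 2 weeks of MR. Slc22a3 (OCT3), a carrier of catecholamines and other organic cations, had 8.46, 13.1, 10.6, 14.3 and 14.6 at 40 weeks, against 1.19, 6.21, 3.29 and 4.95 at 2 weeks of MR. Every 40-week library was above every 2-week MR library for both (Slc38a1 1.48 ± 0.27, adjusted p = 0.000219; Slc22a3 1.54 ± 0.28, adjusted p = 0.000166).

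Slc7a6 had 21.7, 15.6, 20.8, 19.5 and 17 normalised counts at 40 weeks, against 91.6, 26.9, 46.3 and 29.5 at 2 weeks of MR. Slc20a1 had 31.5, 35.8, 32, 20.2 and 24 at 40 weeks, against 109, 38.9, 64.5 and 37 at 2 weeks of MR. The same 2-week library was highest for both, and neither passed without it: Slc7a6 had an adjusted p of 0.00971 with it and 0.0681 without, and Slc20a1 0.00926 with it and 0.0658 without. Falls among the members numbered 16 without that library, against 26 with it. Slc26a6 was also lower at 40 than at 2 weeks of MR (-1.02 ± 0.20, adjusted p = 0.000322).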

How the data were processed

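RNA of 24 myocardial libraries was sequenced on Illumina instruments, per the labels' protocols. Reads were processed in Partek with genome rn6, per the submitters' processing notes, while the aligner, annotation, counting, strand and scaling were not given in the sources used here. In all, the authors deposited 4 tables of normalised counts (a signal per gene, already scaled per library), 1 for each time with MR, each with the same 5 Sham libraries. In each table, over all its columns together, over 97% of values were whole multiples of what 1 read is worth, within 0.1 read. Whole reads were therefore recovered, for count models only. Replicates are numbered here within each group in accession order, which differs from the library numbers in the titles. The same Sham library differs by a constant between tables.

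MR was tested against Sham within each table with limma 3.58.1 (R 4.3.3; empirical Bayes with mean trend) on log2(value + 1), for genes with a mean of at least 1, two-sided, with Benjamini-Hochberg adjustment over all tested genes and a threshold of 0.05. Times with MR were compared in a joined fit of 24 libraries, put on a common scale by median ratios (to each gene's geometric mean over libraries), over 9983 genes. Alternatives were edgeR 4.0.16 and DESeq2 1.42.0 on recovered reads, other pseudocounts, filters and scalings, library weights, no mean trend and leaving out each library. Of these, only the limma test of MR against Sham within each table was also run on simulated counts, with the outcome not reported here.

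Members, roles, lists and tests were chosen with earlier results of these data known, and Slc4a1ap was moved to the genes that are not transporters after the files were read. Named members are those that passed at 2, 10 or 20 weeks, the 3 smallest p values at each of those times, a panel of carriers, and at 40 weeks and between MR times up to 3 rises and 3 falls (per role at 40 weeks) without overlap and with a mean at or above the members' median. Slc38a1 and Slc26a6 were named by comparisons between MR times, and their values against Sham at 40 weeks are given as well. Slc35d2, Slc24a3 and Slc4a1 are reported outside these rules. Promoters came from RefSeq (GRCr8), and 164 of 166 members matched its gene table. Levels are not per length and are not compared between genes. Some members and partner genes are counted but not reported by name here.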

Additional observations from a re-analysis of the deposited data

Results flagged for a closer look

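In 6 of 132 groups of named members 1 library stood apart from the others by Dixon's criterion, which chance meets in about 1 group in 20. Slc28a2 reached 97.8 normalised counts in MR replicate 1 at 10 weeks, the others 83.8 to 87.7, and on the common scale 87.2 in MR replicate 1 at 20 weeks, the others 47.2 to 52.4. At 40 weeks Slc20a2 reached 93.2 in MR replicate 4 (the others 57.2 to 66.6), Slc6a6 reached 20.3 in MR replicate 5 (the others 8.71 to 11.4), and Slc31a1 was at 3.26 in MR replicate 1 (the others 4.98 to 5.54). In the 40-week table Slc22a5 was at 9.73 in Sham replicate 5, the others at 11.9 to 12.6.

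Times with MR differed from each other in 1 member at 10 against 2 weeks, in 52 members at 40 against 20 weeks and in 61 members at 40 against 2 weeks, each by limma's test of that difference.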

How the results depend on the processing

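At 2 weeks MR and Sham titles share 4 library numbers, and a fit with that number as a replicate block, added after the data were seen, gave 0 rises and 0 falls, as without it. Deviations from the group means correlated above 0.1 in 1 of 4 same-numbered pairs, and none of the 4 MR libraries correlated best with its own number. MR number 5 correlated at 0.325 with Sham number 5 and at 0.347 with Sham number 4. With only 4 pairs, these values cannot show whether same-numbered libraries share more than a number. No other paired analysis was possible because later MR numbers recur in no other group. Counts of members that passed moved by over 1.5 times as follows, and the cause was not tested except where a filter left fewer genes. No shares over all genes are given for these settings, so the counts show dependence on processing only. At 10 weeks against Sham there were 2 rises and 1 fall with DESeq2, and 0 rises with edgeR, in the joined fit, on rescaled values and with no mean trend. At 20 weeks there were 2 falls with DESeq2, 1 in the joined fit and 1 with library weights. At 40 weeks there were 9 rises and 17 falls with a mean of at least 10, and 17 falls in the joined fit. At 10 against 2 weeks of MR there were 11 rises and 6 falls with library weights, 2 rises with a pseudocount of 5 or the scale as deposited, and 0 with a pseudocount of 0.1, a mean of at least 10 or only the groups compared. At 20 against 10 weeks library weights gave 4 rises and 8 falls. With a mean of at least 10 there were 16 rises and 8 falls at 40 against 20 weeks and 18 rises and 11 falls at 40 against 2 weeks, and as deposited 22 rises and 26 falls at 40 against 20 weeks. Leaving out 1 library gave 0 to 1 rises at 10 weeks, 22 to 32 rises and 28 to 39 falls at 40 weeks against Sham, 0 to 3 rises and 0 to 1 falls at 10 against 2 weeks, 27 to 39 rises and 10 to 18 falls at 40 against 20 weeks, and 28 to 37 rises and 16 to 27 falls at 40 against 2 weeks. Of the rises at 40 weeks against Sham, 27 of 30 passed in each setting on the whole set of libraries that tested them, and of the falls 16 of 34.

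Values that changed sign at 40 weeks against Sham were all of members that did not pass. In the order DESeq2, edgeR, joined fit and rescaled values, log2 fold changes were 0.0613, 0.0430, 0.0821 and 0.0576 for Slc11a2, 0.120, 0.102, 0.116 and 0.0917 for Slc22a5, and 0.0330, 0.0153, 0.0771 and 0.0518 for Slc39a14. Slc16a3 had 0.0248 with DESeq2 and 0.0105 with edgeR, and Slc7a5 -0.0161 with library weights. Leaving out 1 library gave -0.181 to 0.00456 for Slc11a2, -0.341 to 0.0163 for Slc16a3, -0.142 to 0.0479 for Slc22a5, and -0.0704 to 0.182 for Slc7a5. Listing only genes with a read in each library, and at least 31 reads in the highest, limits what is seen of weakly expressed carriers.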
